A study of Glycine max with 12 samples.

Results

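Leaves of the aphid-susceptible soybean cultivar SD01-76R (S plants) were compared with and without soybean aphids, a contrast set by the sample labels that takes 6 of the 12 arrays of the experiment. The 3 arrays of infested S plants hold the third trifoliate leaf of each plant, taken on day 21 after 30 aphids were placed on each plant. The 3 arrays of uninfested S plants hold leaves of the same position and day from plants that received no aphids, and these leaves were rinsed and rubbed in the same way as those from which aphids were removed. Each array carries RNA pooled from 2 plants. The other 6 arrays are of the resistant line LD16060 (R plants), which carries the resistance gene Rag1, with and without aphids, 3 arrays each, and they enter here as the set against which the S response is measured. By the study's count shortly before sampling, infested S plants bore many more aphids than infested R plants. Infested plants stood on one side of the growth chamber and uninfested plants on the other, so that the effect of aphids and that of the place in the chamber cannot be told apart.

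Aphids push their stylets between leaf cells, puncture some of them on the way and then feed for days from the sieve elements of the phloem. Plants perceive molecules from the insect and its saliva, and fragments of their own damaged cells, through receptors at the cell surface. The known early steps are an influx of calcium into the cell, a burst of oxygen radicals and the activation of protein kinases, followed by hormone signals and by large changes in transcription.

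RNA was hybridized to the Affymetrix Soybean Genome Array, on which each transcript is read by a set of short probes, a probe set. All levels below are log2 intensities after quantile normalization, and 1 unit is a factor of 2. The median over all probe sets and arrays was 7.28, the upper quartile was 8.68, and values below the lower quartile, 5.84, are called a low level. The deposited values show no sign that background was removed, and where it was not, differences that start from a low level are compressed. A probe set is said to have risen or fallen where the Benjamini-Hochberg adjusted p over 37593 soybean probe sets was under 0.05 in limma, and ± gives the standard error of a difference (SE, n = 3 arrays a group). By the Methods the 3 arrays of a group are pools of 2 plants each, grown in the same chamber. The p-values therefore measure the spread between these pools and not between experiments. In a leaf, fewer cells of a type and less RNA per cell cannot be told apart.

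In infested S plants 945 probe sets rose (2.51% of those tested) and 339 fell (0.902%), 1284 in all (3.42%). The rises were larger, with a median of 1.63 over the 945 and a fall of 1.04 for the median of the 339. Of the rises 343 were at least 4-fold, 108 at least 8-fold and 33 at least 16-fold, while 39 falls were at least 4-fold and 0 reached 8-fold. The median difference of all probe sets was -0.04. At stricter cutoffs (p up to 1e-04, Benjamini-Hochberg q up to 0.04 and at least 2-fold), 346 were higher and 43 lower, 389 in all (1.03%), or 209 and 93 without the quantile step. A replicate block raised the counts to 1631 higher and 837 lower (6.57%), and all 1284 probe sets found without the block were among them.

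The 3 infested arrays did not move equally. Over the 945 probe sets that rose, the median level above the uninfested mean was 2.04 on infested array 1, 1.48 on array 2 and 1.38 on array 3, and the 3 uninfested arrays lay at 0.05, 0.11 and -0.21. Over the 339 that fell the medians were -1.26, -0.84 and -1.04 on the infested arrays, with 0.04, 0.00 and -0.05 on the uninfested arrays. Leaving out infested array 1 gave 394 rises and 60 falls, leaving out infested array 2 gave 1147 and 735, and leaving out uninfested array 3 gave 508 and 232. Of the 1284 probe sets, 425 passed whichever of the 6 S arrays was left out.

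The leaves carried the transcripts their label implies. Of the markers for other organs, all 11 seed storage genes and 9 of 13 nodule and root genes were low in both groups, and none of them passed. The summed level of the 5 leaf markers (rubisco activases and a chlorophyll-binding protein) ran from 12.74 to 13.05 on infested arrays and from 12.95 to 13.54 on uninfested arrays. None of the 5 passed, although their median difference was -0.62 and the 2 with an unadjusted p under 0.05, RCAALPHA at -0.90 and RCABETA at -0.87, were lower in infested plants. The part of this shift in the results below was not tested.

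Genes were sorted by function in 2 ways. Array annotation gave symbols to 1676 probe sets, from which 54 lists with 791 genes were made, using for each gene the probe set with the highest mean. Another 15 listed genes passed on a different probe set only and are not in these counts. In lists of this size 1 gene that passed says nothing about its list. Counts of rises and falls in these lists are to be read beside the background of 2.51% for rises and 0.902% for falls. Most other probe sets have no gene name here. Functional descriptions and gene IDs were at hand for 365 probe sets, called the study's set below. The study chose that set on the same arrays, so counts within it are no independent evidence of direction. They are to be read beside the whole set, not beside all probe sets. Of its 365 probe sets 258 rose, 87 fell and 20 did not pass here. Of 59 symbols that had several probe sets and at least 1 that passed, 55 had all their probe sets on the same side of 0, and no symbol had probe sets that passed in both directions.

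The calcium group held both rises and falls. Calmodulins and calmodulin-like proteins bind calcium and pass its signal on to enzymes and transcription factors. Among 16 listed genes for calcium sensors, kinases and pumps 3 rose and none fell (median 0.05). SCAM-4, a soybean calmodulin that is divergent from the conserved isoforms, read 9.70, 9.08 and 8.81 on infested arrays and 8.12, 7.20 and 6.89 on uninfested arrays, a difference of 1.79 ± 0.30 (adjusted p = 0.0070). Every infested array was above every uninfested one, as was the case for the other divergent calmodulin, SCAM-5, which rose by 0.85 ± 0.14 (adjusted p = 0.0059) from a low level. The other probe set of SCAM-5 did not pass (0.12). Over all probe sets 19.1% had groups that did not overlap, in either direction. SCA1, a calcium-pumping ATPase that clears calcium from the cytosol, had 11.88, 11.55 and 10.44 in infested plants and 9.16, 9.32 and 8.68 in uninfested plants, so that the groups did not overlap (2.24 ± 0.41, adjusted p = 0.011).

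The study's set holds 10 genes described as calmodulin-like, calmodulin-binding or EF-hand proteins, 1 of them SCAM-4, and all 10 rose. The CML38-like Glyma.04g136600 read 10.10, 9.92 and 9.56 in infested plants against 6.11, 6.21 and 5.49 in uninfested plants, a difference of 3.92 ± 0.30 (adjusted p = 0.00014). Close to it by locus number, Glyma.04g136200, described as a regulator of gene silencing, a kind of calmodulin-like protein, had 10.61, 10.32 and 10.13 in infested plants against 5.32, 7.57 and 5.14 in uninfested plants (4.34 ± 0.65, adjusted p = 0.0036). In both genes the uninfested arrays differed among themselves by less than the gap to the lowest infested array. The calmodulin-binding genes Glyma.15g171000 and Glyma.17g053600 rose by 2.66 and 2.31, and the calcium-dependent protein kinase Glyma.03g138000 rose by 2.11 ± 0.27 (adjusted p = 0.0019). With each of the 6 S arrays left out in turn, SCAM-4, SCAM-5, Glyma.04g136600, Glyma.04g136200, Glyma.17g053600 and Glyma.03g138000 passed in all 6 fits, and SCA1 and Glyma.15g171000 in 5 of 6, at an adjusted p of up to 0.063 and 0.053.

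Of 3 genes for calcium transport and annexins in the study's set, an exchanger and a channel gene fell, and the annexin gene fell on part of its probe sets. None of the 4 probe sets of SCA2, another calcium pump, passed. A vacuolar type of exchanger trades calcium for protons, and its gene Glyma.07g149600 read 7.57, 8.25 and 8.11 in infested plants, against 10.92, 10.12 and 10.29 in uninfested plants. All infested arrays were lower than all uninfested arrays, and the difference was -2.47 ± 0.33 (adjusted p = 0.0021). The cyclic nucleotide-gated channel gene Glyma.18g263900, described as CNGC2, fell (-1.75 ± 0.35, adjusted p = 0.017). ANN11, an annexin, fell on 1 of its 3 probe sets, with differences from -1.57 to -0.21 over the 3, and a further probe set of its gene ID missed the threshold at -1.46. The CDPK-related kinase Glyma.05g090900 also fell (-1.72 ± 0.27, adjusted p = 0.0047). The exchanger and the kinase passed with any 1 array left out, and the channel gene in 3 of 6 fits (adjusted p up to 0.078).

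**Figure D1:**
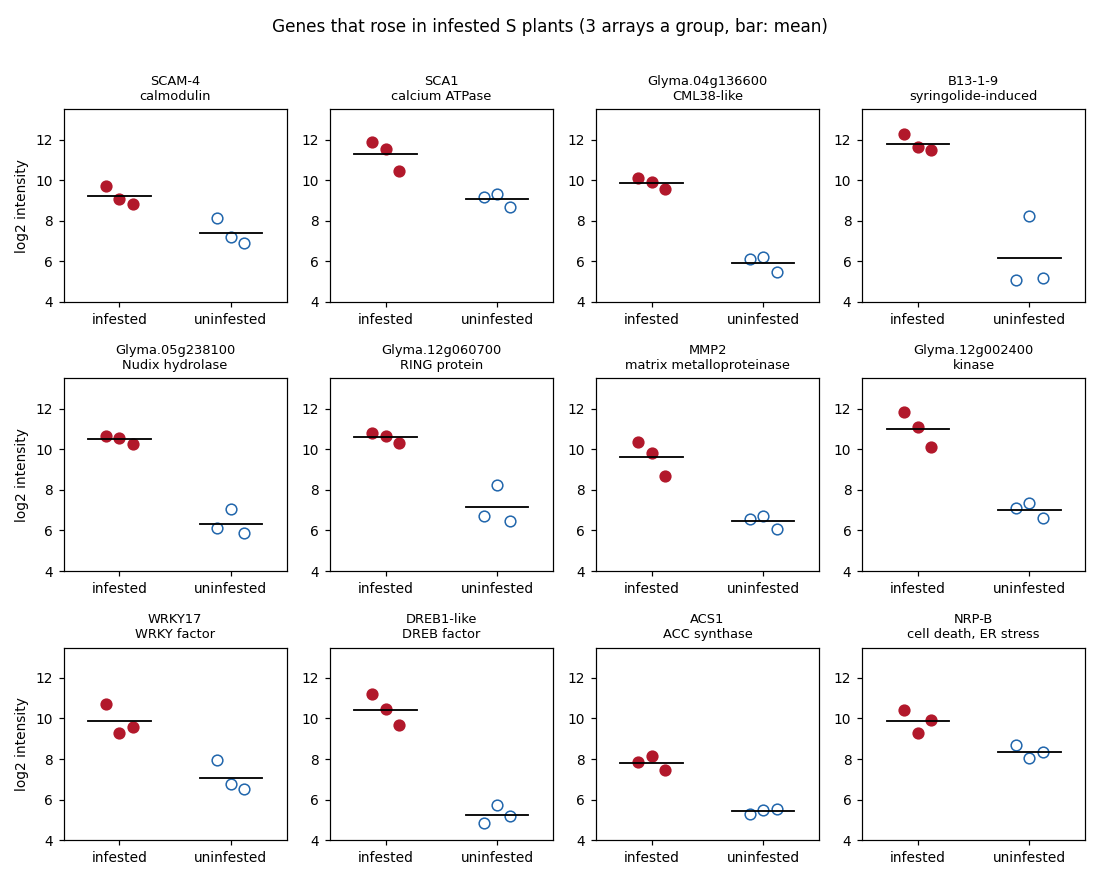
Log2 level on each array for 12 genes that rose, with infested S plants (filled) left of uninfested S plants (open) in each panel and a bar at the mean of 3 arrays. In all 12 panels the lowest infested array is above the highest uninfested array, as the choice of genes with groups that did not overlap requires (19.1% of all probe sets had such groups, in either direction).

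Genes first known as induced by elicitors were among the largest rises. Syringolides are bacterial elicitors that set off a hypersensitive response in soybean carrying the matching resistance gene, and several soybean genes are named after that induction. B13-1-9 had 12.26, 11.63 and 11.47 in infested plants and 5.07, 8.22 and 5.20 in uninfested plants. Uninfested array 2 stood well above the other uninfested arrays and still below every infested array, and the rise was 5.62 ± 0.92 (adjusted p = 0.0062). Glyma.06g020800, described as 14-1-1, read 11.16, 10.08 and 10.02 in infested plants against 4.76, 6.64 and 4.90 in uninfested plants, and Glyma.14g212200, described as 13-1-1, rose by 4.53 ± 0.71 (adjusted p = 0.0049). In all, 12 genes described as syringolide-induced, Hin1-like or elicited by Avr9/Cf-9, an effector and receptor pair of tomato, were in the study's set, and all 12 rose, by 2.17 to 5.62. Of 20 listed genes for syringolide-induced proteins and immune signaling 4 rose and none fell (median 0.37, 6 rose and 1 fell with the block). Besides B13-1-9 and B13-1-1 these were NDR1b, a homolog of a membrane protein needed by several resistance proteins (2.36 ± 0.35, adjusted p = 0.0036), and the MAP kinase MPK4B (0.69 ± 0.17, adjusted p = 0.044), which passed in 1 of 6 fits with 1 array left out (adjusted p up to 0.21).

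The genes for Nudix hydrolases in the study's set, which was chosen on these same arrays, rose. Nudix hydrolases cleave compounds such as ADP-ribose and NADH, and in Arabidopsis some of them limit immune responses. The pair Glyma.05g238100 and Glyma.08g045200, both described as homologs of the Arabidopsis NUDT17, rose by 4.16 ± 0.43 (adjusted p = 0.00063) and 3.80 ± 0.37 (adjusted p = 0.00055). Glyma.05g238100 read 10.64, 10.58 and 10.26 on infested arrays and 6.11, 7.04 and 5.85 on uninfested arrays. The NUDT2-like Glyma.20g062000 and the NUDT4-like Glyma.07g104200 rose by 2.74 and 2.60, so that all 4 Nudix genes of the study's set rose.

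Redox genes rose in some groups and fell in others. Both genes described as the glutaredoxin GRX480, which in Arabidopsis joins TGA factors in salicylic acid signaling, rose, Glyma.12g207400 by 3.72 ± 0.70 (adjusted p = 0.013) and Glyma.13g293700 by 2.37 ± 0.45 (adjusted p = 0.014). AOX3, an alternative oxidase that lets mitochondrial electron flow bypass the proton pumps, rose on 2 of 3 probe sets, with differences from 1.55 to 1.96. The 2 genes for mitochondrial carriers in the study's set, Glyma.04g092100 and Glyma.02g040700, rose by 3.74 and 2.46, and the first passed in 3 of 6 fits with 1 array left out (adjusted p up to 0.091). Among 24 listed glutathione S-transferases 1 rose (4 with the block), GSTIR (2.07 ± 0.38, adjusted p = 0.011), and among 14 peroxidases and oxygen radical enzymes 1 rose, PRX4 (0.87 ± 0.21, adjusted p = 0.047), with list medians of 0.22 and -0.20. Beside the 2.51% of all probe sets that rose, these single rises are not results about the lists. Of 10 glyoxalases, which detoxify methylglyoxal, 2 fell, beside 0.902% of all probe sets. GLYI-17 read 6.22, 6.58 and 6.07 in infested plants and 9.06, 10.28 and 7.37 in uninfested plants, so the infested arrays lay close together and the uninfested arrays were spread out (-2.61 ± 0.64, adjusted p = 0.045). When 1 array was left out, the GRX480 genes passed in 4 and 3 of 6 fits, PRX4 in 2 and GLYI-17 in 1 (adjusted p up to 0.077, 0.072, 0.20 and 0.17).

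Most genes of the study's set for ubiquitin ligases rose, and so did some for proteases. RING proteins attach ubiquitin to their targets, and F-box proteins choose targets for a larger ubiquitin ligase. Of 9 such genes in the study's set 8 rose, led by the RING genes Glyma.12g060700 (3.44 ± 0.62, adjusted p = 0.010) and Glyma.13g338400 (2.77 ± 0.52, adjusted p = 0.013) and the F-box gene Glyma.10g169300 (3.25 ± 0.59, adjusted p = 0.010). The other, the RING gene Glyma.06g074300, differed by -1.14 (adjusted p = 0.064). Outside the cell, the matrix metalloproteinase MMP2, a secreted protease, read 10.35, 9.80 and 8.68 in infested plants and 6.55, 6.73 and 6.05 in uninfested plants, and both its probe sets rose (3.17 and 2.70). Another metalloproteinase, Glyma.01g037200, rose by 2.71 ± 0.39 (adjusted p = 0.0032). The aspartic proteases split, since Glyma.02g148200, described as an extracellular dermal glycoprotein, rose by 4.52 and 3.16 on its 2 probe sets and the nucellin-like Glyma.06g114200 by 2.67, whereas Glyma.11g157000 fell (-1.78 ± 0.32, adjusted p = 0.011). None of 8 listed protease inhibitors passed, and KTI-2, a Kunitz trypsin inhibitor, had the smallest p among them, with 7.23, 9.96 and 8.92 in infested plants and 11.62, 10.34 and 9.50 in uninfested plants, which overlap.

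Most kinases and resistance proteins of the study's set rose. The study's set holds 20 genes described as protein kinases or resistance proteins, 6 of them without a gene ID, of which 18 rose and 2 fell, the CDPK-related kinase named above and the STRUBBELIG-type receptor kinase Glyma.19g261700 (-1.52 ± 0.28, adjusted p = 0.012). Glyma.12g002400, which is described as a cytokinin-regulated kinase, read 11.83, 11.12 and 10.13 in infested plants, against 7.10, 7.36 and 6.64 in uninfested plants (3.99 ± 0.57, adjusted p = 0.0028). SIK1 was the only one of 17 listed receptor-like kinases and resistance genes to pass (2.39 ± 0.37, adjusted p = 0.0047), while 3 rose and 2 fell with the block. Protein phosphatases 2C remove phosphate from kinases and their targets, several of them in abscisic acid signaling. Glyma.14g195200 rose by 4.01 ± 0.82 (adjusted p = 0.019) and Glyma.20g131500 by 1.93 ± 0.20 (adjusted p = 0.00074), and Glyma.11g222600 fell (-1.98 ± 0.37, adjusted p = 0.012). They passed in 3, 6 and 5 of 6 fits with 1 array left out.

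The number of members that rose was counted in each transcription factor family, and whether the families differ was not tested. On the probe sets used for the lists no member fell without the block, while MYB145 fell on its other probe set. Of 52 WRKY genes 15 rose (26 with the block), with a median over the family of 0.90 against -0.04 for all probe sets. The largest rise was in WRKY46 (3.88 ± 0.72, adjusted p = 0.012). WRKY17 had 10.71, 9.30 and 9.60 in infested plants against 7.97, 6.76 and 6.50 in uninfested plants (2.79 ± 0.39, adjusted p = 0.0024), and WRKY5 and WRKY58 rose by 2.69 and 1.94. Of 15 NAC genes 3 rose (4 with the block), of 65 MYB genes 4 (6 rose and 1 fell with the block), of 58 bZIP genes 1 (2 with the block) and of 14 AP2, ERF and DREB genes 2 (3 rose and 1 fell with the block), with medians of 0.54, -0.01, -0.09 and 0.09. Among bZIP genes the share was under the 2.51% of all probe sets. The MYB genes were MYB29 (2.22 ± 0.35, adjusted p = 0.0052), MYB12A (on 3 of its 4 probe sets), MYB81 and MYB68. With 1 array left out, WRKY17, WRKY5, WRKY58 and MYB29 passed in all 6 fits, and over the 15 WRKY genes the number of fits ran from 1 to 6.

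Single factors moved further than their families. DREB1-like, whose relatives bind a drought and cold response element, read 11.21, 10.45 and 9.67 on infested arrays and 4.87, 5.76 and 5.17 on uninfested arrays, that is, a low level without aphids and a level above the upper quartile with them (5.18 ± 0.68, adjusted p = 0.0020). The other 2 genes described as dehydration-responsive factors, Glyma.16g199000 and Glyma.05g049900, rose by 5.57 and 4.98, while Glyma.16g023800, described as a factor of the DREB A-4 group, fell by 2.53 on the log2 scale and had 6.65, 7.31 and 7.42 in infested plants against 9.45, 9.91 and 9.61 in uninfested plants. SCOF-1, a cold-inducible zinc finger protein of soybean, rose on all 3 of its probe sets, by 3.47 to 3.60, and each passed in 2 of 6 fits with 1 array left out (adjusted p up to 0.19). The 3 genes described as GRAS factors rose, Glyma.07g266500 by 3.40, Glyma.12g137700 by 2.57 and Glyma.13g285400 by 2.33. RAV, which carries an AP2 and a B3 domain, rose on 2 of its 3 probe sets (2.13 ± 0.36, adjusted p = 0.0072, for the larger rise). The remaining probe set was at 0.13.

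ACS1, an ACC synthase that makes the precursor of ethylene, had 7.83, 8.16 and 7.45 in infested plants and 5.28, 5.46 and 5.54 in uninfested plants, a low level (2.39 ± 0.26, adjusted p = 0.00076), and its 3 probe sets rose by 1.47 to 2.75. Of 15 genes for lipoxygenases and jasmonate synthesis 1 passed, and it fell (1 rose and 2 fell with the block). VLXC, a lipoxygenase of vegetative storage tissue, had 8.40, 10.53 and 8.78 on infested arrays and 11.65, 11.15 and 11.55 on uninfested arrays, and infested array 2 was nearest to the uninfested plants (-2.21 ± 0.41, adjusted p = 0.013). Both lipoxygenase genes of the study's set fell, VLXC and another at -1.39, and neither passed in all 6 fits with 1 array left out. VSPA, a vegetative storage protein, was at -2.09 (adjusted p = 0.30), with groups that overlapped. None of the 8 probe sets of VSPA passed, and their differences ran from -2.09 to 0.50. Allene oxide cyclases, which form the jasmonate precursor, pointed in different directions, AOC4 with 1.88 (adjusted p = 0.23, or 0.0016 with the block) and AOC6 with -1.32 (adjusted p = 0.12).

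Of 11 listed genes for defense proteins 1 rose, PGIP, an inhibitor of fungal polygalacturonases (1.08 ± 0.22, adjusted p = 0.020), and 5 rose with the block. PGIP passed in 3 of 6 fits with 1 array left out (adjusted p up to 0.10). The list median was 1.27. OLPb, an osmotin-like protein, read 10.73, 9.93 and 10.21 in infested plants and 9.85, 7.77 and 7.78 in uninfested plants, a difference of 1.82 (adjusted p = 0.055, or 0.022 with the block). The chitinase CHIA1 had 11.40, 8.72 and 11.02 in infested plants, against 10.29, 6.48 and 8.89 in uninfested plants. In both genes uninfested array 1 was the highest of its group, and for CHIA1 the groups overlapped.

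A pair of genes tied to cell death under stress rose. NRP-A and NRP-B encode soybean proteins rich in asparagine that act in cell death after osmotic and endoplasmic reticulum stress. NRP-B read 10.40, 9.26 and 9.92 in infested plants and 8.70, 8.04 and 8.34 in uninfested plants (1.50 ± 0.30, adjusted p = 0.019), and NRP-A rose by 1.26 ± 0.27 (adjusted p = 0.025). They passed, 1 array left out, in 2 and 3 of 6 fits (adjusted p up to 0.099 and 0.12). The other 4 genes of this list, among them the autophagy genes ATG6 and ATG3A, had differences between -0.12 and 0.32 and did not pass. Among 32 genes of late embryogenesis and seed maturation, 23 of them low in both groups, 1 rose, MAT1 (1.62 ± 0.26, adjusted p = 0.0054), about the share of all probe sets that rose (2.51%).

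**Figure D2:**
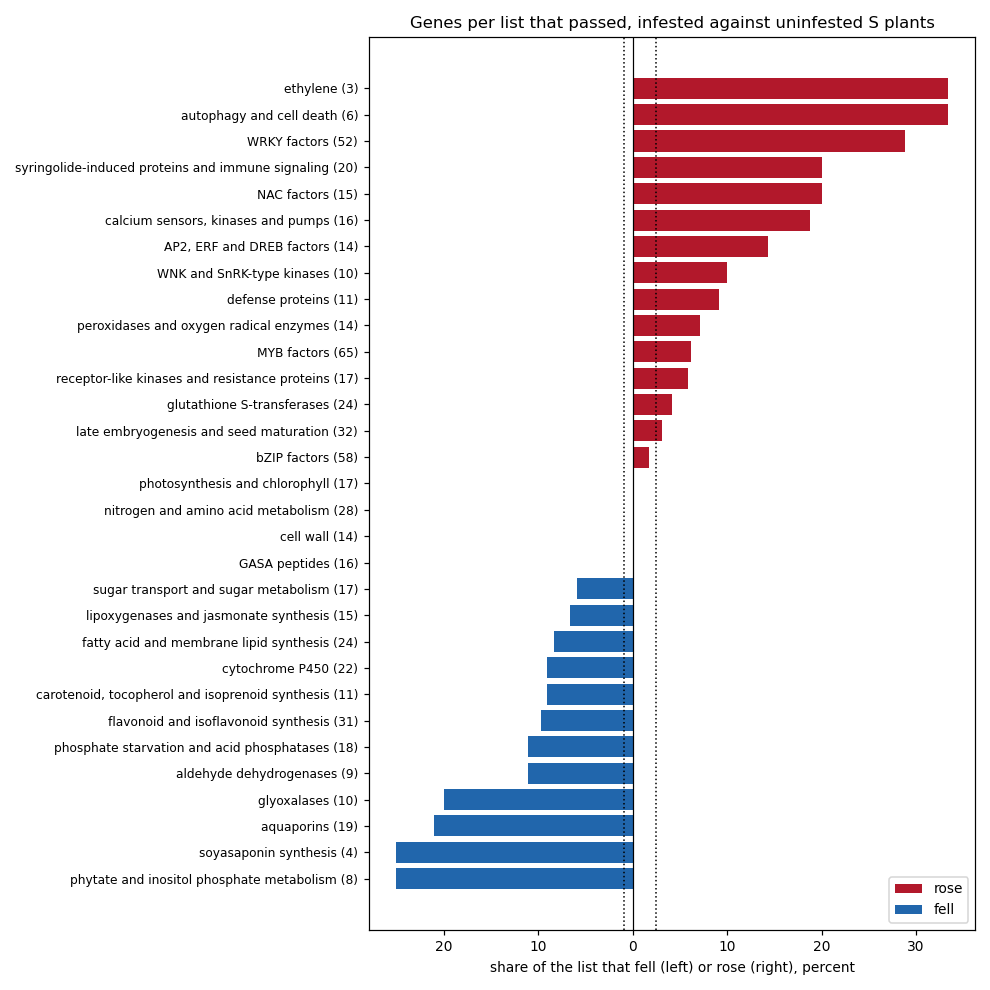
Share of genes that rose (right of 0, in percent) and fell (left of 0) in infested against uninfested S plants, for the 31 lists in which at least 1 gene passed or that hold 14 genes or more, with the number of genes beside each name. Dotted lines mark the shares over all soybean probe sets, 2.51% for rises and 0.902% for falls.

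Phenylpropanoid genes rose at some branches and fell at others. The hydroxycinnamoyl transferase genes Glyma.04g040200 and Glyma.04g040300, whose products join phenolic acids to acceptor molecules, rose by 2.99 ± 0.38 (adjusted p = 0.0019) and 2.64 ± 0.49 (adjusted p = 0.013). Glyma.11g198300, described as similar to 4-coumarate-CoA ligase, rose on 3 probe sets, by 3.19 to 3.96. None of 8 listed genes for entry into the pathway, such as the phenylalanine ammonia-lyase PAL2.1 at 0.28, passed (1 rose with the block). Over the 3 probe sets of PAL2.1, none of which passed, the differences ran from -0.85 to 0.29. Chalcone synthase opens the flavonoid branch. CHS1 rose on 4 of 7 probe sets and its differences ran from -0.22 to 2.60, whereas the chalcone synthase gene Glyma.19g105100 fell (it passed in 2 of 6 fits with 1 array left out, adjusted p up to 0.098), with 6.09, 7.46 and 6.62 in infested plants against 8.97, 8.12 and 9.46 in uninfested plants. The genes of this family are close in sequence, so probe sets may share their signal.

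Of 12 genes for flavonoid and isoflavonoid enzymes in the study's set, the chalcone synthases included, 8 fell, 2 rose and 2 did not pass. F3H, flavanone 3-hydroxylase, had 6.15, 7.01 and 6.72 in infested plants and 8.43, 8.36 and 8.49 in uninfested plants, so that the uninfested arrays lay close together and above all infested arrays (-1.80 ± 0.23, adjusted p = 0.0019). FLS1, flavonol synthase, fell by 1.12 on the log2 scale (adjusted p = 0.020) and UGT78K1, a glucosyltransferase of anthocyanin and flavonol synthesis, by 1.09 (adjusted p = 0.037). The 2 dihydroflavonol reductase genes of the study's set fell as well, Glyma.18g057900 by 1.95 and 2.22 on its 2 probe sets and Glyma.11g164700 by 1.69 (adjusted p = 0.042). Some genes of the study's set that add sugars or malonyl groups to (iso)flavonoids fell too, the glycosyltransferase gene Glyma.15g054300 (-1.56 ± 0.27, adjusted p = 0.0084) and the malonyl transferase gene Glyma.18g258000 (-2.08 ± 0.40, adjusted p = 0.016). The malonyltransferase IF7MaT, named on the array, passed on none of its 3 probe sets, with differences from 0.33 to 0.60. Another glycosyltransferase gene, Glyma.15g221300, fell on 1 probe set (-1.93 ± 0.44, adjusted p = 0.033) and was at -1.60 on the other (adjusted p = 0.053, or 0.038 with the block). Besides CHS1, the anthocyanin acyltransferase gene Glyma.13g302500 rose (2.25 ± 0.37, adjusted p = 0.0062). Of the 31 listed flavonoid and isoflavonoid genes these 3, F3H, FLS1 and UGT78K1, were the ones that passed on the list's probe sets (1 more rose with the block), and the list median was -0.01. When 1 array was left out, F3H passed in all 6 fits, FLS1 in 3 and UGT78K1 in 2 (adjusted p up to 0.099 and 0.16). The probe sets of Glyma.18g057900 passed in 2 and 6, Glyma.11g164700 in 2 (up to 0.14), Glyma.15g221300 in 1 (up to 0.16), Glyma.18g258000 in 4 (up to 0.087) and Glyma.15g054300 in 6.

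Several terpenoid genes fell. Soyasaponins are triterpenoid glycosides made from beta-amyrin. Of 4 soyasaponin genes 1 passed, CYP93E1, which hydroxylates beta-amyrin, and the other 3 had differences from -2.02 to -1.34 with adjusted p from 0.14 to 0.19. Of these SGT2, a glycosyltransferase, fell on its other probe set by 1.84 (adjusted p = 0.044). The study's set gives that probe set the ID Glyma.11g053400 and describes it as an (iso)flavonoid glycosyltransferase, so its assignment is not settled. CYP93E1 had 7.76, 10.63 and 8.79 in infested plants and 11.93, 11.31 and 11.12 in uninfested plants. It fell on 3 of its 4 probe sets, with differences from -2.51 to -0.09 over the 4. Infested array 2 was the nearest to the uninfested level in all 4 genes, and 3 of the 4 had groups that overlapped. Falls were also found in Glyma.11g088000, an HMG-CoA reductase of the mevalonate pathway (-2.02 ± 0.47, adjusted p = 0.036), in Glyma.13g213500, a deoxyxylulose phosphate synthase of the plastid pathway (-1.94 ± 0.42, adjusted p = 0.027), and in NES, a terpene synthase (-2.42 ± 0.55, adjusted p = 0.033). The HMG-CoA synthase gene Glyma.01g215500 was at -1.91 (adjusted p = 0.098). VTE2-2, of the tocopherol and plastoquinone branch, fell on 1 of its 3 probe sets (-0.84 ± 0.20, adjusted p = 0.041), with differences from -0.84 to -0.40 over the 3. It was the only one of 11 carotenoid, tocopherol and isoprenoid genes to pass, although BCH3 fell on another probe set. None of these terpenoid falls passed in all 6 fits with 1 array left out, and CYP93E1, VTE2-2 and SGT2 passed in 1 (adjusted p up to 0.14, 0.19 and 0.19).

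Starch and sucrose genes moved in both directions. GBSS Ib is a granule-bound starch synthase that makes amylose, and its gene Glyma.16g018500 read 7.47, 7.89 and 7.74 in infested plants against 11.60, 9.64 and 10.52 in uninfested plants, and both of its probe sets fell, by 2.88 and 2.46 on the log2 scale (adjusted p = 0.046 and 0.023). Of 2 genes for beta-amylase, which releases maltose from starch, Glyma.06g301500 fell (-2.29 ± 0.45, adjusted p = 0.016) and Glyma.13g215000 rose (1.47 ± 0.14, adjusted p = 0.00043). The acid invertase gene Glyma.17g138500 had 7.42, 9.61 and 8.31 on infested arrays and 11.35, 11.71 and 10.16 on uninfested arrays, and its difference of -2.63 missed the threshold (adjusted p = 0.052, or 0.040 with the block). SUT1, a sucrose transporter of the kind that loads the phloem, fell by 1.07 on the log2 scale (adjusted p = 0.027) and was the only one of 17 sugar transport and metabolism genes to pass. It passed on 1 of its 3 probe sets, with differences from -1.07 to -0.67 over the 3. On that probe set its infested arrays lay at 8.30, 8.35 and 8.15 and its uninfested arrays at 9.80, 9.06 and 9.15, without overlap. With 1 array left out, GBSS Ib passed in 1 and 2 of 6 fits on its 2 probe sets, SUT1 in 2 and Glyma.13g215000 in 6 (adjusted p up to 0.18, 0.099, 0.10 and 0.0034).

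Inositol genes held 2 falls among 8 listed and no rise (median 0.17), while 0.902% of all probe sets fell. MIPS and MIPS4, which make inositol phosphate from glucose 6-phosphate, fell by 1.91 and 2.30 on the log2 scale (adjusted p = 0.028 and 0.030). MIPS fell on 1 of its 2 probe sets and was at -1.38 on the other. MIPS4 read 8.61, 11.42 and 10.35 in infested plants and 12.51, 12.39 and 12.38 in uninfested plants. ITPK3, a kinase that adds phosphates to inositol phosphates, rose on 3 of its 5 probe sets, with differences from 0.33 to 2.64 over the 5. It did not pass on the probe set used for the list. ITPK1 and ITPK2 passed on no probe set, with differences from 0.32 to 0.60. MIPS and MIPS4 passed in 1 and 2 of 6 fits with 1 array left out (adjusted p up to 0.10 and 0.087).

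**Figure D3:**
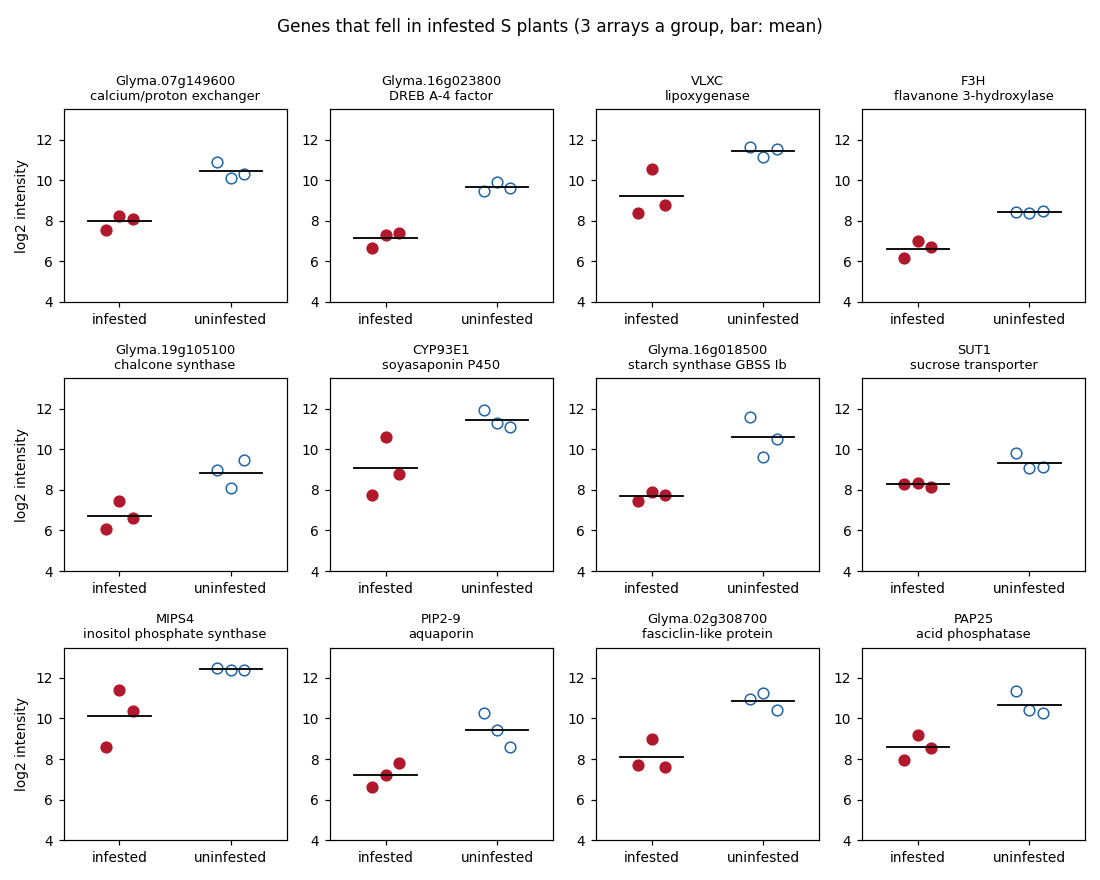
Log2 level on each array for 12 genes that fell, with infested S plants (filled) left of uninfested S plants (open) in each panel and a bar at the mean of 3 arrays. In all 12 panels the highest infested array is below the lowest uninfested array, as the choice of genes requires.

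Some water channel genes fell. Aquaporins of the PIP group carry water across the plasma membrane, and of 19 listed aquaporins 4 fell and none rose (median -0.10). Over all probe sets 0.902% fell. PIP2-9 had 6.60, 7.23 and 7.83 in infested plants and 10.27, 9.41 and 8.62 in uninfested plants (-2.21 ± 0.55, adjusted p = 0.049). PIP1-10 had 10.86, 11.25 and 11.09 in infested plants, against 11.85, 11.95 and 11.96 in uninfested plants, a smaller change between tighter groups (-0.85 ± 0.17, adjusted p = 0.016). PIP2-13 and PIP1-1 fell by 1.44 and 0.90 on the log2 scale, PIP2-13 on 1 of its 2 probe sets (the other at -1.14). PIP1-10 and PIP2-13 passed with 1 array left out in 3 and 2 of 6 fits (adjusted p up to 0.092 and 0.17). PIP2-9 passed in 1 of 6 fits and PIP1-1 in 5 (adjusted p up to 0.22 and 0.052).

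Of 10 genes in the study's set for wall polymers and wall hydrolases 6 fell, 3 rose and 1 did not pass. The largest fall was in Glyma.02g308700, a fasciclin-like arabinogalactan protein at the cell surface, with 7.72, 8.97 and 7.59 in infested plants and 10.95, 11.24 and 10.41 in uninfested plants. Its 2 probe sets gave -2.77 ± 0.41 (adjusted p = 0.0035) and -2.67 ± 0.37 (adjusted p = 0.0024). The glucanase genes Glyma.08g022300 and Glyma.06g025100 fell by 2.15 and 2.04, and the family 37 glycosyltransferase gene Glyma.07g022300, on 3 probe sets, by 1.72 to 2.07. The rises were in the expansin-like Glyma.11g096700, the cellulose synthase-like Glyma.01g014000 and the xyloglucan endotransglycosylase-related Glyma.13g095100, by 2.83, 2.95 and 2.72. None of the 14 listed cell wall genes passed (1 fell with the block), although CEL12 fell on another probe set. Both genes for beta-tubulin in the study's set, a protein of the microtubules that guide cellulose deposition, fell, Glyma.17g258300 by 2.00 and Glyma.14g219300 by 1.68 (adjusted p = 0.027 and 0.041), and they passed in 3 and 1 of 6 fits with 1 array left out (up to 0.14 and 0.17).

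Polyamine, lipid, phosphate and amino acid genes gave smaller sets. Polyamine oxidase 2-like Glyma.08g303800 fell on both probe sets (-1.77 and -1.71, adjusted p = 0.0049 and 0.0060) and the spermidine synthase gene Glyma.17g092400 fell by 1.18. Of 24 genes for fatty acid and membrane lipid synthesis 2 fell (3 with the block), the desaturase FAD3C (-0.66 ± 0.14, adjusted p = 0.022) and the acetyl-CoA carboxylase subunit ACCB-2 (-1.31 ± 0.30, adjusted p = 0.035), and the list median was -0.35. Over all probe sets 0.902% fell. FAD3C fell on 1 of its 2 probe sets, and the other was at -0.18. Purple acid phosphatases release phosphate from organic compounds, and PAP25 fell on all 3 probe sets, by 2.00 to 2.17 (a further probe set of the same gene ID missed the threshold at -1.09), with 7.96, 9.20 and 8.55 in infested plants and 11.35, 10.40 and 10.26 in uninfested plants. The other phosphatase to pass among 18 listed genes was PAP (-1.38 ± 0.32, adjusted p = 0.036). Of 9 aldehyde dehydrogenases 1 fell, ALDH2C8 (-0.88 ± 0.21, adjusted p = 0.037), and it passed in 2 of 6 fits with 1 array left out (adjusted p up to 0.18). The asparagine synthetase gene Glyma.18g061100 rose, with 12.07, 9.86 and 11.21 on infested arrays and 7.38, 7.89 and 6.22 on uninfested arrays (3.89 ± 0.79, adjusted p = 0.019), whereas the amino acid permease gene Glyma.06g088300 fell (-1.42 ± 0.34, adjusted p = 0.041) and none of 28 listed nitrogen and amino acid genes passed (1 fell with the block). Sali3-2, known from aluminium stress, fell on the 4 probe sets of Glyma.12g217400 (1 of them named SALI5-4A on the array), by 1.55 to 2.79, and passed in 6, 6, 2 and 1 of 6 fits with 1 array left out. The symbol SALI5-4A has 3 probe sets, of which only this one fell, and the highest was at 0.14. The spermidine synthase gene and PAP passed in 3 and 2 such fits (adjusted p up to 0.16 and 0.17). With 1 array left out, FAD3C, ACCB-2, the asparagine synthetase gene and the permease gene passed in 3, 1, 3 and 3 of 6 fits (adjusted p up to 0.10, 0.17, 0.11 and 0.18).

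Several groups with a role in phloem or leaf function held no gene that passed. Sieve element occlusion proteins form plugs in legume sieve tubes, and 7 of the 8 listed genes were low in both groups, with differences from -0.20 to 0.23. Of 17 photosynthesis and chlorophyll genes none passed and 4 were lower at an unadjusted p under 0.05, ELIP, CHLH and the 2 rubisco activases named above. ELIP, an early light-induced protein, read 9.84, 9.86 and 10.20 in infested plants and 11.45, 10.40 and 11.90 in uninfested plants, a difference of -1.28 (adjusted p = 0.14, or 0.010 with the block). No gene passed among 16 GASA peptides, 12 cyclophilins, 8 proteins of the 14-3-3 group, 11 clock, light and flowering genes or 9 phosphoenolpyruvate carboxylases and their kinases, although 1 GASA peptide, 1 cyclophilin and 1 carboxylase kinase fell with the block. With 3 arrays a group, an adjusted p over the threshold does not show that these genes did not differ.

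The R plants gave 0 probe sets in the same comparison, at an adjusted p of 0.472 for the smallest, while an unadjusted p under 0.05 was found for 449 higher and 327 lower probe sets. On the 945 probe sets that rose in S plants the median response of R plants was 0.35, and on the 339 that fell it was -0.15. Since S values chose these probe sets, this is a description. The study held its comparison of infested S with infested R plants not reliable, given the large difference in aphid number. The responses of S and R plants were likewise not measured at an equal aphid load. Aphid number and cultivar therefore cannot be told apart here. A test of the difference between the 2 responses, (infested minus uninfested S plants) minus (infested minus uninfested R plants), found 3 probe sets (0.00798%), 67 with the block, while 2600 had an unadjusted p under 0.05. Without 1 S array it found 1 (infested array 1), 33 (infested 2), 39 (infested 3), 10 (uninfested 1) and 0 (uninfested 2 or 3). For the other genes described here the difference between the responses did not pass without the block. With the block it passed for several of them, such as Glyma.16g199000 (adjusted p = 0.017), ACS1 (0.017), Glyma.05g049900 (0.018), Glyma.04g136600 (0.018), Glyma.12g137700 (0.022) and F3H (0.042).

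All 3 were genes that rose in S plants. Glyma.07g043000, described as auxin-repressed, read 9.38, 9.39 and 9.76 in infested S plants and 7.23, 7.12 and 7.21 in uninfested S plants, and the R plants had 6.15, 6.49 and 6.52 with aphids and 5.89, 6.08 and 6.16 without. The response of S plants exceeded that of R plants by 1.98 ± 0.22 (adjusted p = 0.036). Glyma.15g142200, with no described function, read 10.35, 10.77 and 10.41 in infested and 6.04, 5.11 and 5.02 in uninfested S plants, and in R plants 7.10, 6.91 and 6.30 with aphids and 4.97, 5.93 and 5.27 without (3.75 ± 0.44, adjusted p = 0.040). Glyma.11g243200, a hypothetical protein, gave a difference between responses of 2.76 ± 0.35 (adjusted p = 0.048), with 2.87 in S plants and 0.11 in R plants. Next in order came Glyma.16g199000, a dehydration-responsive factor, with 5.57 in S plants and 0.59 in R plants (4.98 ± 0.65, adjusted p = 0.053, or 0.017 with the block).

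**Figure D4:**
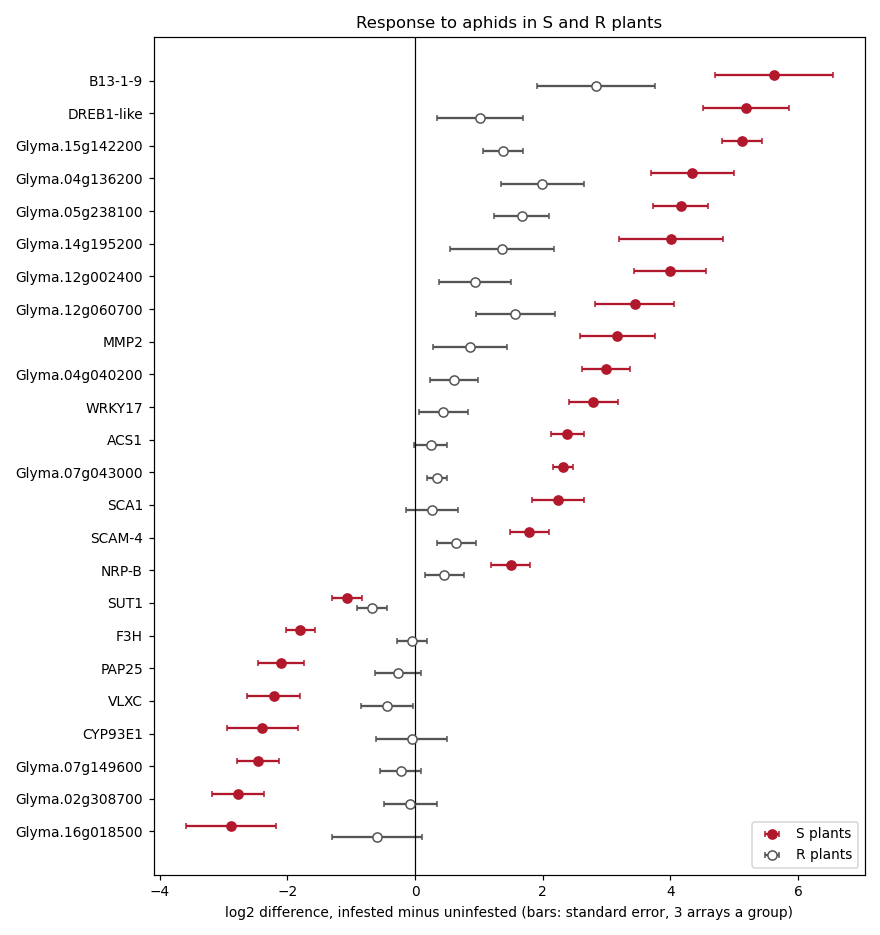
Log2 difference between infested and uninfested plants, with its standard error, for 24 genes described above in S plants (filled) and R plants (open), ordered by the S difference. The S differences run from -2.88 to 5.62, none of the 24 genes passed in R plants, and of them Glyma.07g043000 and Glyma.15g142200 passed the test of the difference between S and R plants. Infested S plants bore more aphids than infested R plants.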

How the data were processed

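Leaves at the third trifoliate position, in 12 pools of 2 plants, were measured on the Affymetrix Soybean Genome Array. Per the labels and the Methods, the authors normalized with GCRMA, and RMA, GCRMA and limma stand in the submitters' processing notes without versions. The deposited log2 values hold 37653 probe sets, 37593 of soybean. In 99.6% of entries 2 to the power of the value is whole (relative tolerance 1e-06). The medians of the arrays lie between 6.86 and 7.71, so the values show no sign of background removal or of a common scale.

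The soybean probe sets were therefore quantile normalized over all 12 arrays. limma 3.58.1 in R 4.3.3 fitted 1 mean per group over the 12 arrays with empirical Bayes moderation, so that the spread is shared by all 4 groups, and p-values were adjusted by Benjamini-Hochberg over all soybean probe sets, also at the strict cutoffs in place of a Storey q. Precision is limited by the number of arrays. The fit was tested on simulated data.

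Annotation gave 1 symbol to 8677 probe sets and several to 370, which were not named, and 28546 are unnamed. Gene IDs and descriptions of 365 probe sets come from the study. The contrast, the members and the lists were chosen with earlier results of these data known. Members were assigned by symbol after the annotation was seen, and some lists (sieve element occlusion, GASA, glyoxalases, 14-3-3, cyclophilins, aldehyde dehydrogenases and phosphoenolpyruvate carboxylases) were added then. Named genes were drawn from the largest annotated rises and falls with groups that did not overlap and from the list members with the smallest p. Genes given by the study for S plants were added, and those with the smallest p for the difference between S and R plants. Not all of them are described above. The largest rise, LOC100820426 at 5.65, described as an ERF-type factor, is among those left out. Groups within the study's set were formed from its descriptions after values were seen. The fold changes and p-values of the study were not used.

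Deviations from the group means correlated at 0.129, 0.362 and 0.152 between infested and uninfested S arrays with the same replicate number, and from -0.333 to 0.204 between arrays with different numbers. The pairing rests on these correlations, since the labels and the Methods do not tie the numbers to blocks. The fit has no block, as in the Methods, and blocked counts and p-values are given beside the lists and genes described here whose call they change. Other alternatives were the values as deposited, median centering, all rows of the table, a filter at the median level, the 6 S arrays alone, trend and robust moderation, and each S array left out.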

Additional observations from a re-analysis of the deposited data

Results flagged for a closer look

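The response of S plants to aphids differed from that of R plants by the test of the difference itself for 3 probe sets. Infested S plants bore more aphids than infested R plants, so aphid number and cultivar cannot be told apart in this test. For Glyma.07g043000, described as auxin-repressed, the difference between the responses was 1.98 on the log2 scale (limma, adjusted p = 0.036), with 2.32 in S plants and 0.34 in R plants. For Glyma.15g142200, without a described function, it was 3.75 (adjusted p = 0.040), with 5.13 in S plants and 1.38 in R plants. For Glyma.11g243200, a hypothetical protein, it was 2.76 (adjusted p = 0.048), with 2.87 in S plants and 0.11 in R plants. In all 3 genes every infested S array lay above every uninfested S array. The S groups did not overlap, in either direction, for 19.1% of all probe sets. These 3 were chosen by a difference that includes the S response, so their separation is no further evidence. With the block the adjusted p was 0.016, 0.016 and 0.018. On the values as deposited, without uninfested S array 2 and without uninfested S array 3, 0 probe sets passed this test.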

How the results depend on the processing

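No named gene changed direction under any alternative run. With the replicate block, 2468 probe sets passed in S plants (main 1284), 720 at the strict cutoffs (389), 111 members of the lists (62) and 67 for the difference of responses (3). With the 6 S arrays alone, 765, 238 and 31 passed. On the values as deposited 651 passed, with 39 list members and 0 for the difference of responses (1080 at an unadjusted p under 0.05 in limma). Among probe sets above the median level, 752, 189 at the strict cutoffs and 0 for the difference (1226 at an unadjusted p under 0.05) passed, of 18796 tested. The cause was not tested, except that the filter tests fewer probe sets. With 1 S array left out, the counts ran from 454 to 1882, from 213 to 450 at the strict cutoffs, from 18 to 89 list members and from 0 to 39 for the difference of responses, where alone leaving out arrays was chosen after seeing the data. The lowest came without infested array 1, after which 54 of the 128 named probe sets no longer passed, except that the difference of responses was at 0 without uninfested array 2 or 3 (2769 and 2485 at an unadjusted p under 0.05). Without uninfested array 3, 740 probe sets passed, 251 at the strict cutoffs and 35 list members, and without uninfested array 2, 39 list members. Of 114 named probe sets that passed, 58 did so in all 6 of these fits. Median centering, all rows of the table and trend with robust moderation kept every total within 1.5 times. The number of arrays limits precision. The values show no sign of background removal, and without it differences that start from a low level are compressed.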

Other observations

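Genes of the study's set that lie near each other by locus number were compared for the direction of their difference between infested and uninfested S plants. Of 21 neighbouring pairs within 5 steps of the gene numbering, 19 had both differences on the same side of 0, which also held for 58.6% of all pairs of these genes, since most of the set rose. Whether neighbours differ from other pairs was not tested. At 1 stretch, Glyma.03g201000 (Hin1-like) had, with the syringolide-induced Glyma.03g201100, Glyma.03g201300 (B13-1-9) and Glyma.03g201500, log2 differences of 3.58, 3.43, 5.62 and 2.17. Glyma.11g243000, a glycosyltransferase gene, Glyma.11g243200 and the RING gene Glyma.11g243400 had log2 differences of 2.11, 2.87 and 2.31, and the middle one is among the 3 whose response differed between S and R plants. Glyma.15g142200, another of these 3, had a neighbour, Glyma.15g142100, at 2.72. The pairs on opposite sides of 0 were Glyma.01g215500 (HMG-CoA synthase, -1.91, which did not pass) with Glyma.01g216000 (3.47), and Glyma.08g021900 (3.67) with the glucanase gene Glyma.08g022300 (-2.17), each of the latter pair as the mean of its probe sets. Glyma.08g021900 is WRKY46 on the array and is described as a WRKY20 fragment. The study chose this set on the same arrays, and probe sets of near-identical neighbours may share their signal, which was not tested.

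All 3 genes of the set described as heavy metal proteins rose, among them Glyma.16g178500 at 4.21 and Glyma.16g178000 at 2.92.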
